A study of Rattus norvegicus with 16 samples.

Results

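The proteasome genes of the rat renal outer medulla were followed over 28 days of daily dosing with the nitroaromatic 2-amino-4-nitrophenol (ANP). Members were all genes whose rat symbol starts with Psma to Psmg followed by a digit. Of 102 such RefSeq symbols 54 were protein coding and 48 were pseudogenes, and 46 genes had a named probe, of 15284 genes named on the array. They were divided into 15 constitutive core subunits (Psma and Psmb), 20 regulatory particle genes (Psmc and Psmd), 5 immunoproteasome and PA28 subunits (Psmb8, Psmb9, Psmb10, Psme1 and Psme2) and 6 others (Psme3, Psme4, Psmf1, Psmg2, Psmg4 and Psme3ip1). The rule also took in Psmc3ip, a factor of meiotic recombination, and Psme3ip1, a protein that binds PA28 gamma, which match by symbol but are not proteasome subunits. The 8 protein-coding members without a named probe (Psmb11, Psmb3l1, Psmb3l2, Psmb6l1, Psmd11, Psmg1, Psmg3 and Psmg4l1) were not analysed here.

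Male Crl:CD Sprague-Dawley rats, 5 weeks old when dosing began, received ANP at 750 mg/kg/day in corn oil by gavage, or corn oil alone as the vehicle control (VC). Total RNA of the outer medulla was measured on 16 single-colour Agilent arrays. Days 1 and 7 were measured on 1 array per group, with mixed RNA of 3 animals, so their ratios have no replicate error and no test. For days 14 and 28 there were 3 arrays per group, and every array held RNA of 1 animal. Levels are log2 signals relative to the 75th percentile of the array, and differences are log2 ratios, ANP over VC. Levels of different probes were not compared with each other. Adjusted p-values come from limma with Benjamini-Hochberg adjustment over all 11849 genes tested, at a threshold of 0.05. Of the 46 members 45 passed the filter on dim signals. All 45 were well above background on every array, and the exception was Psma8, an alpha subunit of the testis.

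The share of probes well above background ranged from 64.7% to 69.6% over the arrays, and the r between replicates, across genes, from 0.987 to 0.993. The 9 measured thick ascending limb markers had mean levels between 3.84 and 4.47 on all arrays. Between the pools of day 7, 5 of these 9 were at least 1.25-fold lower (median -0.39; 14.6% of all genes were), and so were 5 of 9 collecting duct markers (median -0.37). The 8 injury markers had a median log2 ratio of 2.34 on day 1, with 8 above 0, and of 0.62 on day 7, with 5 above 0 and 3 below. The part of these shifts in the pool results was not tested. Markers of other structures varied as well. The mean level of 7 convoluted proximal tubule markers lay between 2.90 and 4.52 on the VC arrays of day 14. On the VC arrays of day 28 it lay between 5.08 and 5.43. The mean level of 8 glomerular markers lay between 0.28 and 0.49 on the ANP arrays of day 28, against 0.91 to 1.21 on the VC arrays of that day. On day 14 it lay between -0.81 and -0.44 on the ANP arrays, against -0.46 to 0.31 on the VC arrays. In a bulk sample, fewer cells of a type and less RNA per cell cannot be told apart. The 3 ANP arrays of day 28 were on 1 slide and the 3 VC arrays on another, so slide and group cannot be told apart on that day. On day 14 ANP replicate 1 shared a slide with the 3 VC arrays. ANP replicates 2 and 3 of day 14 were on the slide of the VC arrays of day 28, so slide and group partly coincide on day 14 too.

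The proteasome is the main protease of the cytosol and nucleus, and it degrades proteins that carry ubiquitin chains. Alpha subunits (Psma) form the outer rings of the barrel-shaped core particle and gate its entry, and beta subunits (Psmb) form the inner rings, where Psmb5, Psmb6 and Psmb7 carry the catalytic sites. The regulatory particle caps the core, and in it Psmc proteins are ATPases that unfold the substrate, while most Psmd proteins bind, deubiquitinate or position it. Under interferon gamma the catalytic subunits are exchanged for Psmb8, Psmb9 and Psmb10, and the PA28 activator of Psme1 and Psme2 is made. In mammalian cells proteasome genes are targets of NFE2L1 and NRF2, factors that bind the antioxidant response element and respond to proteasome inhibition and to electrophiles.

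The promoters of the members are shown first, with matches to the antioxidant and interferon stimulated response elements where these were found. RefSeq promoters of the GRCr8 assembly, from 250 bases before to 50 bases after the gene start, were at hand for 42 members. The core of the antioxidant response element, TGACNNNGC on either strand, was found in 8 of 42 member promoters (19%), against 12.2% of all 27457 promoters. It was in 4 of 14 core, 3 of 17 regulatory, 0 of 5 immunoproteasome and PA28, and 1 of 6 other promoters. The windows of the catalytic subunits and of 3 members named below are given on the strand of the gene, 5′ to 3′, with the motif in capitals (in its reverse complement where it lies on the opposite strand).
Psmb5 (chr15:32047421-32047449, minus strand): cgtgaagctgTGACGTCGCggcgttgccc
Psmb6 (chr10:55737854-55737882, plus strand): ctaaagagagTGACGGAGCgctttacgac
Psma3 (chr6:95219727-95219755, plus strand): tctgtggcctGCCGGGTCAgcaccatgag
Psmd9, first match (chr12:39018370-39018398, minus strand): acttagctctGCCGGGTCAtctgaaaacc
Psmd9, second match (chr12:39018323-39018351, minus strand): gagtttccggTGACCTCGCcccacctcca
Psme4 (chr14:108706578-108706606, plus strand): ggagaaagccGCTGGGTCAcctcctcgcc
The motifs start 60 bases upstream of the gene start in Psmb5, 24 in Psmb6, 12 in Psma3, 124 and 77 in Psmd9 and 55 in Psme4. The promoter of Psmb7 held no match in this window.

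The core of the interferon stimulated response element, which is GAAA, 2 bases of any kind and GAAA on either strand, was found in 7 of 42 member promoters (16.7%), against 3.77% of all promoters. The immunoproteasome and PA28 promoters held it in 3 of 5, and their windows are printed in the same way.
Psmb8 (chr20:4657016-4657045, minus strand): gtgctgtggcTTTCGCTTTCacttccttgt
Psmb10, first match (chr19:50743346-50743375, minus strand): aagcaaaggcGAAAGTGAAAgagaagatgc
Psmb10, second match (chr19:50743290-50743319, minus strand): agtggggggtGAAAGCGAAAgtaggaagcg
Psme2 (chr15:33052785-33052814, minus strand): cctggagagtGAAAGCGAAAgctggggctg
The other 4 promoters with this motif were those of Psma4, Psmb3, Psmd7 and Psmg4. The NF-Y box CCAAT was in 52.4% of member promoters, against 37.7% of all promoters, and the Ets core GGAAG was in 88.1%, against 70.1%. The heat shock element core GAANNTTC was in 3 of 42 (7.14%, against 8.34%) and the gamma interferon activated site core TTCNNNGAA in 4 of 42 (9.52%, against 8.68%). Motifs overlapped in Psmb2, where 1 base is shared by TGACNNNGC and CCAAT, and in Psmd3, where TTCNNNGAA and GGAAG share 4 bases at 2 places. A match describes these letters and is not a measured binding site.

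Psmd5 and Psme3, the members that were higher on every ANP array, are shown with the 250 bases upstream of their gene start, with matches to any of the 6 motifs in capitals.
Psmd5 (chr3:38548491-38548740, minus strand): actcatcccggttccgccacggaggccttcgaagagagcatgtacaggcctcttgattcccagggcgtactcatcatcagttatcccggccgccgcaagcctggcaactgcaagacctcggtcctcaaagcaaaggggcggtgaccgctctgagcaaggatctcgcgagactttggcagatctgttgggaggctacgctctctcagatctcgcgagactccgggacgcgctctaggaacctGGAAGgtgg
Psme3 (chr10:86757683-86757932, plus strand): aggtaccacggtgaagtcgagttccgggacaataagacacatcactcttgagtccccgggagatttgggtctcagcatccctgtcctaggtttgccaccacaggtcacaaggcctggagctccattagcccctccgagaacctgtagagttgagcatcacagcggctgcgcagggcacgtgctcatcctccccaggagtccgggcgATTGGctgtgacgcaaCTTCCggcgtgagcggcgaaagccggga
Psmd5 held 1 Ets core, 9 bases upstream of the gene start, and no other match. Psme3 held a CCAAT box and an Ets core, both on the opposite strand, 44 and 28 bases upstream.

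After 1 day most core and regulatory genes were higher in the ANP pool than in the VC pool. Of the 46 members 42 had a log2 ratio above 0, against 46% of 12414 genes. The median log2 ratio of the members was 0.40 (1.32-fold), while that of all genes was -0.04. At least 1.25-fold higher were 26 members (21% of all genes were) and at least 1.25-fold lower was 1 member, Psma8 (25% of all genes were). Psma8 was kept in the comparisons of the pools only because it was well above background in the VC pools. At least 1.5-fold higher were 8 members, against 10.9% of all genes, and 1 was at least 1.5-fold lower, against 12.3%. For 34 of the 45 members that passed the filter, the ANP pool of day 1 lay above each of the 8 VC arrays of the study, which held for 23.7% of all genes, and for 2 members it lay below all of them (27.9%). That count was 19 of 20 regulatory genes, 11 of 14 core genes, 3 of 6 others and 1 of 5 immunoproteasome and PA28 subunits. The VC pool of day 1 was itself low for these genes. Against the VC pool of day 7 on the same slide, a comparison added after the data were seen, the median of the ANP pool of day 1 was 0.27, with 18 members at least 1.25-fold higher.

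By day 7 the differences were smaller. The median log2 ratio was 0.16, against 0.04 over 12123 genes, and 39 of 46 members were above 0 (56.3% of all genes were). At least 1.25-fold higher were 4 members (13.8% of all genes) and at least 1.25-fold lower were 2 (14.6%). None was at least 1.5-fold higher (5.3% of all genes) and 1 was at least 1.5-fold lower (6.81%). The ANP pool of day 7 still lay above all 8 VC arrays for 27 of 45 members, against 16.6% of all genes, with 0 of the 5 immunoproteasome and PA28 subunits among them, and below all 8 for 0 members (8.88%).

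On day 14 no member passed the test. The median log2 ratio was -0.0072, with 21 of 45 members above 0 (52.3% of all genes), and 0 of 45 members were higher and 0 lower by limma (0.363% and 0.118% of all genes were, or 43 and 14 genes, 69 and 50 with normexp, and 0 and 1 without ANP replicate 3). At an unadjusted p under 0.05 there were 4 higher (Psmd5, Psme1, Psme3 and Psmg4; 7.27% of all genes) and 1 lower (Psmd7; 6.13%). The 3 ANP values lay above the 3 VC values for 5 members (10.3% of all genes) and below them for 2 (7.92%). On day 28, 2 of 45 members were higher by limma, Psme3 and Psmd5, and 0 were lower, against 4.49% and 2.69% of all genes. The shares over all genes correspond to 532 higher and 319 lower genes, and with arrays scaled to their median to 773 and 244. They rest on single arrays: without VC replicate 1 they were 146 and 71, and without VC replicate 2 they were 149 and 62. The median log2 ratio was 0.15 on that day, against 0.02 for all genes (0.07 with quantile normalization, 0.04 with normexp and 0.06 without ANP replicate 1), and 36 of 45 members were above 0 (53.4% of all genes) and 9 below (46.6%). The count above 0 depended on the scaling and was 29 with quantile normalization and 31 with normexp. Unadjusted p was under 0.05 for 13 of 45 members above 0, against 15.2% of all genes, and for 1 below 0 (Psme4; 11.2%). The 3 ANP values lay above the 3 VC values for 18 members on day 28 (18.6% of all genes) and below them for 1 (14.2%).

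**Figure D1:**
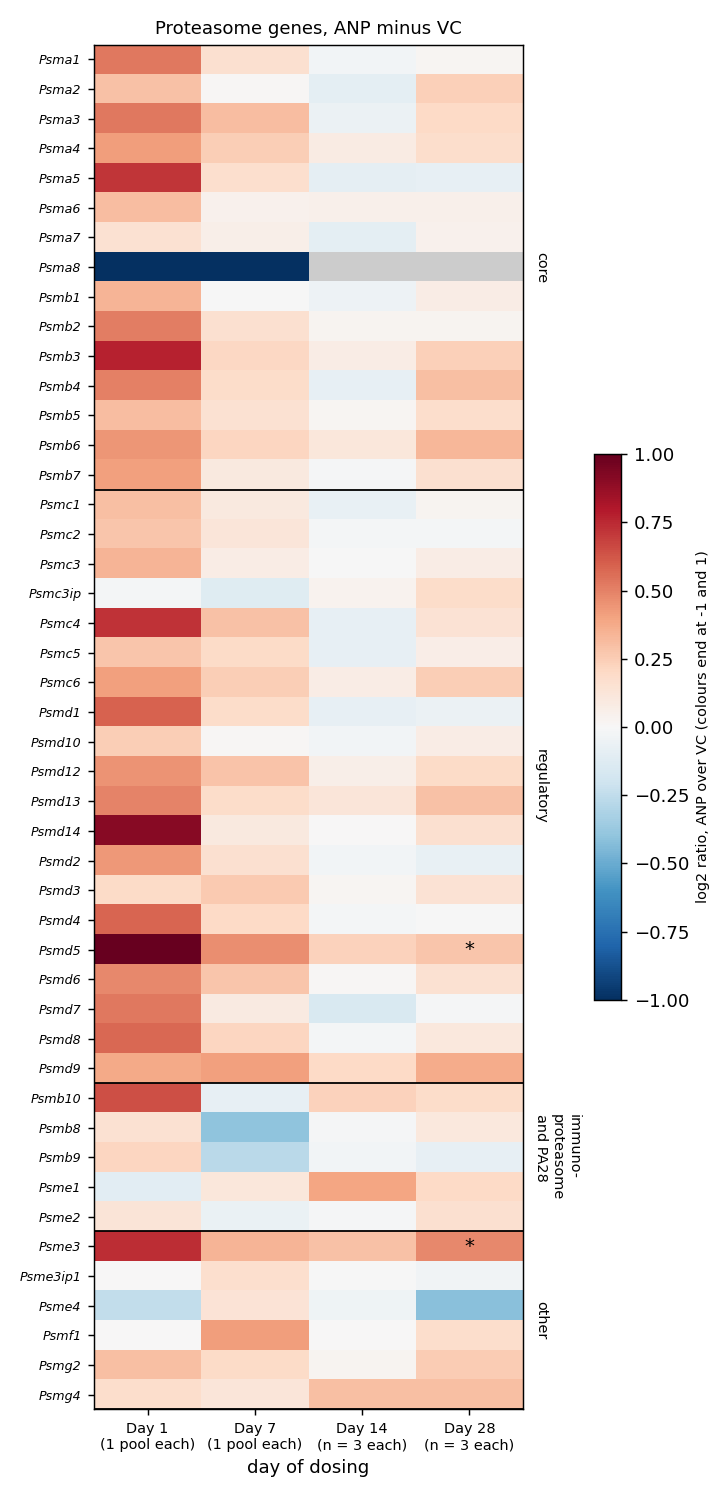
Log2 ratio of ANP over VC for each of the 46 proteasome genes (rows, by class) on days 1, 7, 14 and 28 (columns), from blue (lower in ANP) to red (higher). Asterisks mark limma adjusted p under 0.05, which only Psmd5 and Psme3 on day 28 reached, and grey marks Psma8 where it was too dim to test. Most core and regulatory rows are red on day 1 and pale on day 14.

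The per-animal values of day 28 were uneven. With each member set against its mean over the 6 VC arrays of days 14 and 28, the median over members was 0.24, 0.13 and -0.0034 on ANP replicates 1, 2 and 3, and -0.02, 0.02 and 0.04 on the VC replicates. ANP replicate 1 was thus furthest from the VC arrays, and replicate 3 lay among them. The medians over all genes tested were 0.08, 0.03 and -0.0034 on ANP replicates 1, 2 and 3, and -0.0041, 0.01 and 0.01 on the VC replicates. Of the 45 members 21 had their highest value of all 16 arrays on ANP replicate 1 of day 28 (19.9% of all genes did) and 18 on the ANP pool of day 1 (16.7%). The 18 were 13 regulatory and 5 core genes, and the 21 were 9 core, 5 regulatory, 4 immunoproteasome and PA28 and 3 other genes. On day 14 the medians over members were 0.01, -0.04 and 0.0002 on the ANP arrays and 0.03, 0.02 and -0.07 on the VC arrays.

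**Figure D2:**
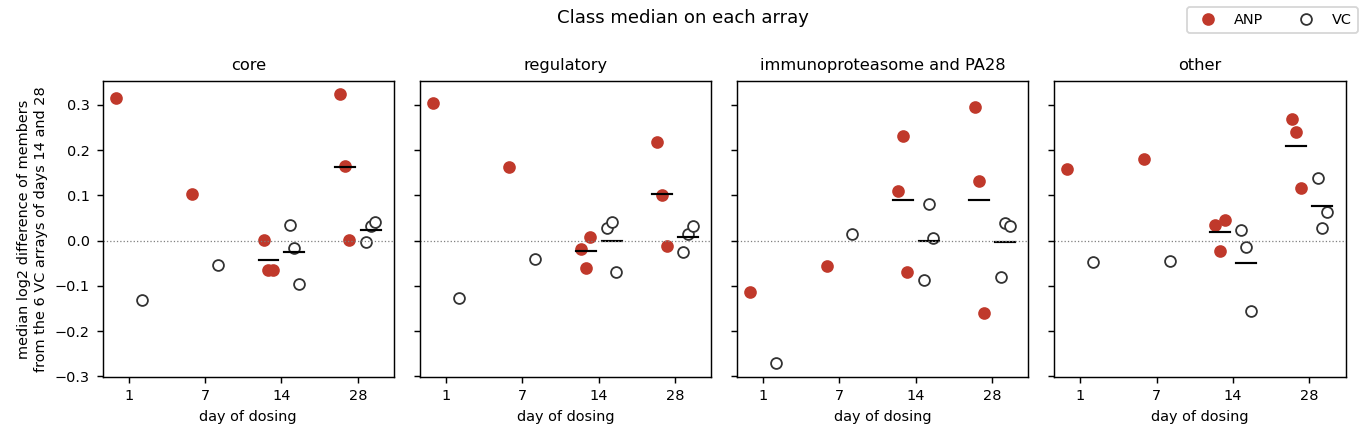
Median over the members of each class of the log2 difference from the mean of the 6 VC arrays of days 14 and 28 (vertical axis), on each array, by day of dosing. Filled points are ANP arrays, open points VC arrays, and black lines the means of 3 animals. For core and regulatory genes the ANP pool of day 1 sits at 0.32 and 0.30, and the VC pool of day 1 at -0.13 for both.

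**Figure D3:**
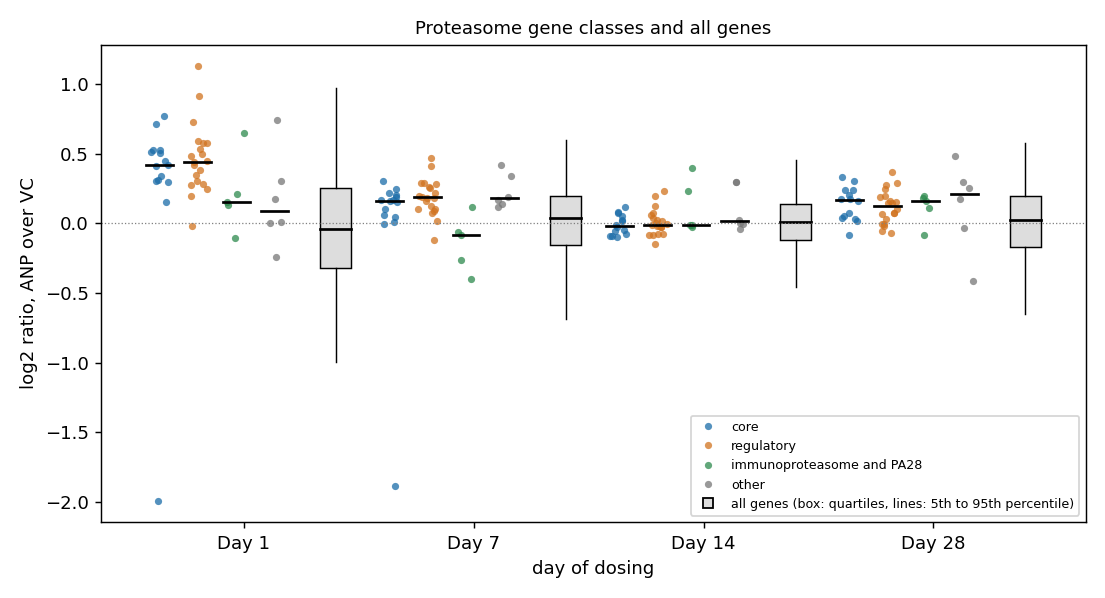
Log2 ratio of ANP over VC on each day for the members of each class (points, with the class median as a line) and for all genes (box with quartiles and median, lines over the range that leaves out the lowest and the highest 5% of genes). The 2 points near -2 are Psma8, which was not well above background in the ANP pools. Core and regulatory medians are 0.42 and 0.44 on day 1, where all genes have a median of -0.04.

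The highest log2 ratios of day 1, 1.13 and 0.91, were those of the regulatory particle genes Psmd5 and Psmd14. The class medians were close, at 0.44 for regulatory and 0.42 for core genes. With the mean of a gene's probes they were 0.42 and 0.44. All 13 Psmd genes and all 6 Psmc ATPase genes were above 0, with medians of 0.50 and 0.32. Psmd5, an assembly chaperone of the base of the regulatory particle, led with a level of 1.84 in the ANP pool of day 1 against 0.71 in the VC pool, a 2.18-fold difference. On day 7 it stood at 1.24 in the ANP pool and 0.78 in the VC pool. On day 14 Psmd5 had levels of 1.05, 1.05 and 1.00 in ANP animals, against 0.87, 0.75 and 0.79 in VC animals. On day 28 the levels were 1.11, 1.10 and 1.09 in ANP animals and 0.73, 0.84 and 0.90 in VC animals. The groups did not overlap on either day, and all 8 ANP arrays lay above all 8 VC arrays, as they did for 1.15% of all genes. Psmd5 was higher by a log2 ratio of 0.28 on day 28 (SE 0.07; limma adjusted p = 0.044) and had a ratio of 0.23 on day 14 (SE 0.07; limma adjusted p = 0.20). The day 28 call was lost whichever single array of that day was left out (limma adjusted p from 0.061 to 0.15).

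Psmd14 is the deubiquitinase of the regulatory particle and removes the ubiquitin chain before the substrate is degraded. Its level was 1.87 in the ANP pool of day 1, against 0.96 in the VC pool, a log2 ratio of 0.91. On day 7 the levels were 1.35 in the ANP pool and 1.25 in the VC pool, and the log2 ratio was 0.0016 on day 14 and 0.16 on day 28 (limma adjusted p = 0.998 and 0.29). The difference of day 1 was thus not seen again at that size.

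The ATPase gene Psmc4 had a level of 2.87 in the ANP pool of day 1, against 2.14 in the VC pool, a 1.65-fold difference. Its other 2 probes gave log2 ratios of 0.63 and 0.77 on day 1. The remaining ATPase genes lay closer together, with day 1 log2 ratios between 0.28 (Psmc2) and 0.41 (Psmc6). On day 28 Psmc6 had levels of 3.72, 3.73 and 3.68 in ANP animals and 3.48, 3.42 and 3.51 in VC animals. These groups did not overlap, and the log2 ratio of 0.24 missed the threshold (SE 0.07; limma adjusted p = 0.052).

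Among the scaffold, receptor and lid subunits, day 1 log2 ratios were 0.59 for Psmd1 and 0.44 for Psmd2, the large scaffold proteins of the base, and 0.58 for the ubiquitin receptor Psmd4. Psmd7, the structural partner of Psmd14, stood at 0.53 on day 1 and at -0.15 on day 14 (SE 0.07; limma unadjusted p = 0.048, adjusted p = 0.37). The Psmd genes not named above had day 1 ratios from 0.19 (Psmd3) to 0.58 (Psmd8). Psmd9 is another assembly chaperone. Its level was 3.88 in the ANP pool and 3.50 in the VC pool on day 1, and 3.89 and 3.47 on day 7. The groups overlapped on day 14, with 3.61, 3.39 and 3.53 in ANP animals and 3.37, 3.44 and 3.13 in VC animals (log2 ratio 0.20, limma adjusted p = 0.43). On day 28 it was 3.95, 3.91 and 3.92 in ANP animals and 3.62, 3.61 and 3.45 in VC animals, with no overlap. The log2 ratio of 0.37 on day 28 missed the threshold (SE 0.10; limma adjusted p = 0.052), and its other 2 probes gave 0.29 and 0.30. Psmc3ip, which is no subunit, had ratios of -0.02 on day 1 and -0.12 on day 7.

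**Figure D4:**
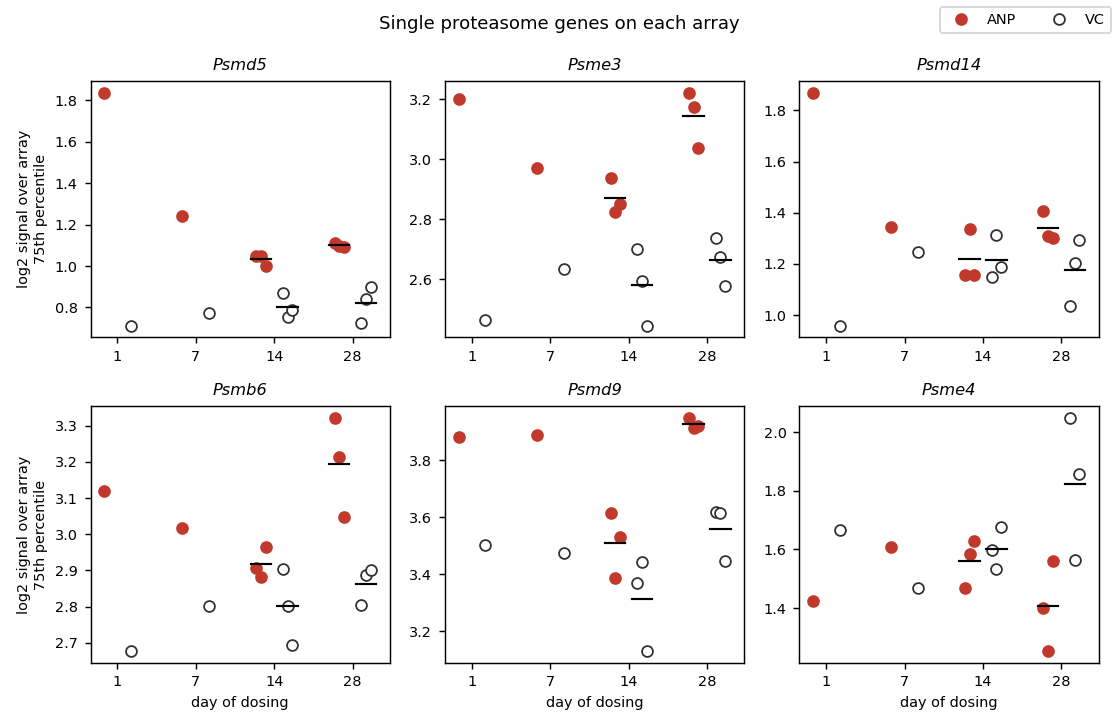
Log2 signal over the 75th percentile of the array for 6 proteasome genes on each of the 16 arrays, by day of dosing, with ANP filled, VC open and black lines for means of 3 animals. Each panel has its own vertical range. For Psmd5 and Psme3 all 8 ANP points lie above all 8 VC points, while Psmd14 is separated by 0.91 on day 1 and Psme4 is lower in ANP on day 28.

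Core particle genes had a median similar to that of regulatory particle genes on day 1. All 7 constitutive beta subunits were above 0 (median 0.44, from 0.31 to 0.77), as were 7 of 8 alpha subunits (median 0.37). The structural beta subunit Psmb3 had a level of 5.32 in the ANP pool of day 1 and 4.56 in the VC pool, a 1.70-fold difference, and its other probe gave a log2 ratio of 0.88. The alpha subunit Psma5 had 4.46 in the ANP pool of day 1 and 3.74 in the VC pool. Psma3, another alpha subunit, had the highest log2 ratio of the core genes on day 7 (0.30), with 4.02 in the ANP pool against 3.72 in the VC pool. Its other probe gave a smaller ratio of 0.17. On day 14 the 14 core genes lay between -0.10 and 0.12, with 6 above 0 and no p under 0.05 before adjustment. On day 28, 13 of 14 were above 0 (median 0.17), 5 of them with an unadjusted p under 0.05 (15.2% of all genes were higher at that p), and none passed after adjustment. The core median rested partly on single animals, at 0.06 without ANP replicate 1 and 0.25 without ANP replicate 3, and was 0.06 with quantile normalization and with normexp.

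The catalytic subunits were measured next to the immunoproteasome subunits that replace them. Psmb6, the caspase-like subunit that Psmb9 replaces, had levels of 3.12 and 2.68 in the ANP and VC pools of day 1, and of 3.02 and 2.80 in those of day 7. On day 28 Psmb6 had 3.32, 3.21 and 3.05 in ANP animals, against 2.80, 2.89 and 2.90 in VC animals. The groups did not overlap and the log2 ratio was 0.33 (SE 0.09), just over the threshold (limma adjusted p = 0.051; 0.040 with quantile normalization). Psmb7, the trypsin-like subunit that Psmb10 replaces, had 3.47 in the ANP pool of day 1 and 3.06 in the VC pool. On day 28 Psmb7 overlapped, with 3.57, 3.30 and 3.12 in ANP animals and 3.16, 3.15 and 3.20 in VC animals (log2 ratio 0.16, limma adjusted p = 0.37). Psmb5, the chymotrypsin-like subunit that Psmb8 replaces, had 4.61 in the ANP pool of day 1 and 4.30 in the VC pool. On day 28 it overlapped as well, with 4.91, 4.76 and 4.51 in ANP animals and 4.50, 4.58 and 4.56 in VC animals (log2 ratio 0.18, limma adjusted p = 0.32). On days 7 and 14 the log2 ratios were 0.10 and -0.0095 for Psmb7 and 0.16 and 0.02 for Psmb5.

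Immunoproteasome and PA28 subunits had a median log2 ratio of 0.16 on day 1 (4 of 5 above 0), against 0.42 for core and 0.44 for regulatory genes and 0.09 for the 6 other members. The sign of their median depended on the VC pool. With the ANP pool of day 1 set against the VC pool of day 7, it was -0.13. In that comparison core genes had 0.32, regulatory genes 0.33 and the other members 0.19. On day 7 their median was -0.08, and 1 of 5 was above 0. None of the 5 passed the test on day 14 or day 28. Psmb8 had levels of 0.29 and 0.14 in the ANP and VC pools of day 1, and of 0.33 and 0.74 in those of day 7. It was the lowest of the members well above background on day 7, at a log2 ratio of -0.40. On day 14 Psmb8 had 0.76, 0.88 and 0.51 in ANP animals and 0.56, 0.91 and 0.71 in VC animals, and on day 28 it had 0.94, 0.78 and 0.30 in ANP animals and 0.61, 0.51 and 0.57 in VC animals. The groups overlapped on both days.

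Psmb9 stood at 0.85 in the ANP pool and 0.64 in the VC pool on day 1, and at 0.83 and 1.10 on day 7. In single animals Psmb9 had 1.10, 1.38 and 1.01 on day 14 under ANP and 1.09, 1.31 and 1.16 under VC. On day 28 the values were 1.41, 1.27 and 0.78 in ANP animals and 1.11, 1.33 and 1.25 in VC animals. As for Psmb8, the ANP animals spread more widely than the VC animals on day 28.

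Psmb10 was the one immunoproteasome subunit among the higher members of day 1, with 2.91 in the ANP pool and 2.26 in the VC pool (1.57-fold). On day 7 it had 2.57 in the ANP pool and 2.66 in the VC pool. On day 14 its values were 2.66, 3.05 and 2.74 in ANP animals and 2.60, 2.61 and 2.53 in VC animals, with no overlap but a limma adjusted p of 0.55. On day 28 they were 2.97, 2.63 and 2.37 in ANP animals and 2.42, 2.45 and 2.56 in VC animals, which overlapped.

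The PA28 genes behaved differently from each other. Psme1 had 4.91 in the ANP pool of day 1 and 5.02 in the VC pool, the third lowest log2 ratio of the members (-0.11). On day 14 Psme1 had 5.27, 5.38 and 5.30 in ANP animals, against 4.59, 5.00 and 5.17 in VC animals (log2 ratio 0.40, SE 0.13; limma adjusted p = 0.23), and VC replicate 1 was low. Without that array the ratio was 0.23, and the other Psme1 probe gave 0.16. On day 28 it had 5.44, 5.31 and 5.22 in ANP animals and 5.17, 5.09 and 5.14 in VC animals (log2 ratio 0.20, limma adjusted p = 0.37). Psme2 had log2 ratios of 0.13, -0.06, -0.0095 and 0.16 on days 1, 7, 14 and 28.

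Leukocytes express the immunoproteasome at rest. Of 18 leukocyte markers 1 was above 0 on day 7 (median -0.38; 56.3% of all genes were above 0), and their mean level was -0.36 in the ANP pool and 0.07 in the VC pool. On days 1, 14 and 28 the medians of the leukocyte list were 0.01, -0.15 and -0.10, with 0 of 18 called higher or lower on days 14 and 28. Their part in the values of Psmb8 and Psmb9 was not tested. Among 17 measured genes of antigen presentation and of the interferon gamma response the medians were -0.0044, 0.03, -0.06 and -0.08 on days 1, 7, 14 and 28. On both later days 0 were higher and 1 was lower, the chemokine gene Cxcl11 (log2 ratio -0.99 on day 14 and -1.01 on day 28, limma adjusted p = 0.048 and 0.013). Of all genes 0.363% were higher and 0.118% lower on day 14, and 4.49% and 2.69% on day 28.

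**Figure D5:**
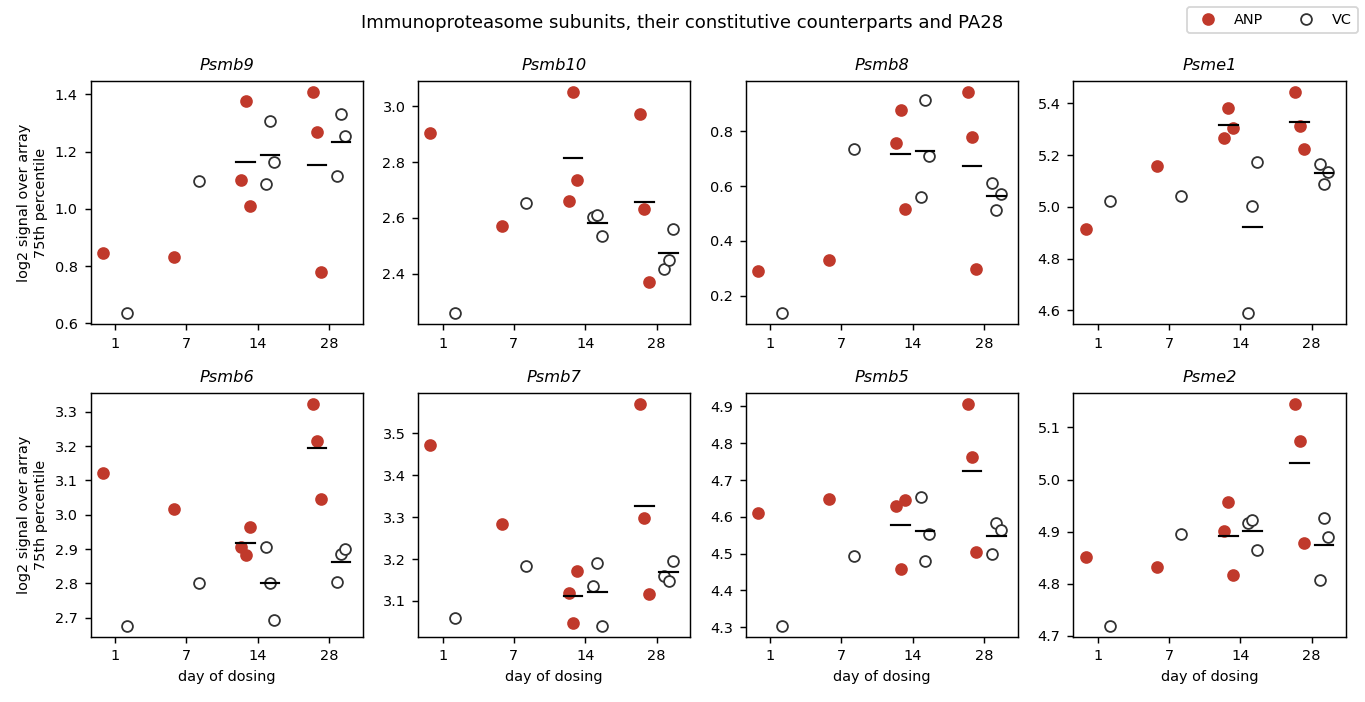
Log2 signal over the 75th percentile of the array for the immunoproteasome subunits Psmb9, Psmb10 and Psmb8 (top row), the constitutive subunits they replace below each (Psmb6, Psmb7 and Psmb5), and the PA28 genes (right column), on each array by day of dosing. ANP is filled, VC open, and black lines are means of 3 animals, with a separate vertical range for each panel. On day 7 Psmb8 is at 0.33 in the ANP pool and 0.74 in the VC pool, and on day 28 the ANP points of Psmb6 lie above the VC points.

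The remaining members serve as alternative activators, an inhibitor and assembly factors. Psme3 encodes PA28 gamma, a nuclear activator that opens the core to substrates without ubiquitin. Its level was 3.20 in the ANP pool of day 1 against 2.46 in the VC pool (1.67-fold), and 2.97 against 2.63 on day 7. On day 14 Psme3 had 2.94, 2.83 and 2.85 in ANP animals and 2.70, 2.59 and 2.44 in VC animals, and on day 28 it had 3.22, 3.18 and 3.04 in ANP animals and 2.74, 2.67 and 2.58 in VC animals. The groups did not overlap on either day, and all 8 ANP arrays lay above all 8 VC arrays. Psme3 was higher on day 28 by a log2 ratio of 0.48 (SE 0.09; limma adjusted p = 0.0148), and its ratio on day 14 was 0.29 (SE 0.09; limma adjusted p = 0.20). The day 28 call was lost without VC replicate 2 (limma adjusted p = 0.058) or without ANP replicate 2 (0.054), and its other probe gave a smaller ratio of 0.18 on day 28.

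Psme4 encodes PA200, an activator linked to the degradation of acetylated histones. It had 1.42 in the ANP pool of day 1 and 1.67 in the VC pool. On day 28 Psme4 had 1.40, 1.25 and 1.56 in ANP animals, against 2.05, 1.56 and 1.86 in VC animals, without overlap (log2 ratio -0.42, SE 0.13; limma adjusted p = 0.071). It was the only member below 0 with an unadjusted p under 0.05 on that day, but its probes disagreed. The other 2 probes gave -0.17 and -0.01 on day 28, and 0.18 and 0.25 on day 1.

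Psmf1, a regulator that inhibits the core particle in vitro, had a larger ratio on day 7 than on day 1, with 2.82 in the ANP pool and 2.40 in the VC pool of day 7 (1.34-fold) and 2.57 and 2.56 in the pools of day 1. The core assembly chaperones Psmg2 and Psmg4 had log2 ratios of 0.30 and 0.17 on day 1 and of 0.25 and 0.30 on day 28 (limma adjusted p = 0.095 and 0.10). Psma8 was at the limit of detection. It was well above background in the VC pools of days 1 and 7 but not in the ANP pools, at least 1.60-fold lower on day 1 and at least 2.76-fold lower on day 7. On day 14 it was well above background on 0 of 3 ANP arrays and 2 of 3 VC arrays, so no bound is given. On day 28 it was so on none of the 6. Its other probes were not well above background on any array. The bounds of the pools set the VC signal against the lowest signal that counts as well above background. Where the probe's own signal in the ANP pool was higher, that was used instead.

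The effect of ANP on day 28 was not shown to differ from that on day 14 for any member. Limma's interaction test called 0 of 45 members and 0 of 11849 genes in either direction. An unadjusted p under 0.05 was found for 9.27% of all genes. Unadjusted p was under 0.05 for 2 members above 0, Psma2 and Psmb4 (5.16% of all genes), and for 0 below 0 (4.1%), and the 2 had log2 differences of 0.33 and 0.38 at limma adjusted p of 0.47 and 0.49. The median difference over members was 0.13 (0.04 with quantile normalization, 0.07 with normexp and 0.06 without ANP replicate 1 of day 28), with 38 of 45 above 0 (52.6% of all genes) and 7 below (47.4%), and the count above 0 was 29 with quantile normalization and 27 with normexp. Both comparisons enter this difference, and they share no arrays.

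The VC groups of days 14 and 28 lay on different slides. Between them, day 28 minus day 14, 0 of 45 members were higher and 0 lower by limma, while 6.99% of all genes were higher and 4.16% lower. With slide as a fixed block, which the ANP arrays of day 14 allow because they lie on both slides, 0 of 11849 genes were called in either direction, and the member median was 0.05. The slide term of that fit rested on ANP replicate 1 of day 14 against replicates 2 and 3. Whether slide or lost precision took away the calls was not tested. Without the slide block, unadjusted p was under 0.05 for 3 members, Psmc2, Psmd9 and Psme3ip1, all higher on day 28 (14.3% of all genes). The member median was 0.02, with 28 of 45 above 0 (50.9% of all genes) and 17 below (49.1%). With quantile normalization 12 were above 0, so the direction of this median depended on the scaling. In the same comparison 5 of 7 convoluted proximal tubule markers (median log2 ratio 2.35) and 6 of 8 glomerular markers (median 1.39) were higher without the slide block. In ANP against VC on day 28, 3 of 8 glomerular markers were lower (median -0.86; 2.69% of all genes were), and 1 of 7 convoluted proximal tubule markers was higher (4.49%) at a list median of -0.66. Also lower on day 28 were 3 of 9 collecting duct (median -0.38), 1 of 9 thick ascending limb (0.21) and 1 of 7 endothelial markers (-0.04). Of 8 straight proximal tubule markers 2 were higher (median 0.16). On day 1, 5 of 8 straight proximal tubule markers were at least 1.25-fold lower in the ANP pool (median -1.01; 25% of all genes were). Another 2 of the 8 were at least 1.25-fold higher (21% of all genes were). The part of these shifts in the proteasome values was not tested.

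Genes that work with the proteasome included members with larger ratios on day 1. Of 16 proteasome partners 10 were measured, with a median of 0.20 on day 1 and 8 above 0 (46% of all genes were). They were led by the proteasome-bound deubiquitinase Usp14 (1.06), the nuclear import factor Akirin2 (0.89), the redox protein Txnl1 (0.63) and the ubiquitin receptor Adrm1 (0.62). On days 14 and 28, 0 of 10 partners were called higher (0.363% and 4.49% of all genes) or lower (0.118% and 2.69%). Of 24 genes of the ubiquitin and VCP pathway 21 were measured, with a median of 0.12 on day 1. Of these 13 were above 0 (46% of all genes) and 8 below (54%). Zfand2a, an arsenite-induced protein that binds the proteasome, had a log2 ratio of 4.97, the autophagy receptor Sqstm1 1.54, the co-chaperone Bag3 1.46 and the shuttle factor Ubqln1 0.92. Bag3 is also on the list of heat shock genes below. Nfe2l1, the gene of the factor described above, had a ratio of -0.37. On day 28, 1 of 21 was called higher, Sqstm1 (log2 ratio 0.71, limma adjusted p = 0.023), near the 4.49% of all genes, and 0 were called lower (2.69%).

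Stress gene lists were measured beside the proteasome members. Of 20 NRF2 target genes the medians were 1.29, 1.09, 0.72 and 1.36 on days 1, 7, 14 and 28. By limma 2 of 19 tested were higher on day 14 (0.363% of all genes) and 14 of 19 on day 28 (4.49%), among them Gstm1 (log2 ratio 4.32), Nqo1 (3.70), Pir (2.70) and Abcc2 (2.15), and 0 were lower on either day (0.118% and 2.69%). The 13 measured heat shock genes had medians of 1.08, 0.21, 0.12 and 0.05 on the same days, with Hspa1a at 4.83 and Hsph1 at 2.94 on day 1. By limma 1 of 13 was higher on day 14 (0.363% of all genes) and 1 on day 28 (4.49%), in both cases Hspb8 (log2 ratio 1.34 and 1.06), and 0 were lower (0.118% and 2.69%). Over these days the medians of the core particle genes were 0.42, 0.16, -0.02 and 0.17, and those of the regulatory particle genes 0.44, 0.19, -0.01 and 0.13.

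Members with the antioxidant response element core in the promoter had a median day 1 log2 ratio of 0.41, and the other 34 had 0.34. The medians with and without the interferon stimulated response element core were 0.42 and 0.34, and with and without the heat shock element core 0.34 and 0.38. These medians include Psma8 and are given as a description.

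Several members had more than 1 probe. The 81 probes of the 46 members gave log2 ratios above 0 for 71 on day 1, 72 on day 7, 41 on day 14 and 61 on day 28. In the 25 members with several probes, the 32 further probes with signals well above background throughout had the sign of the brightest probe in 28 cases on day 1, 32 on day 7, 22 on day 14 and 29 on day 28.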

How the data were processed

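Total RNA of the outer medulla was labelled with Cy3 and hybridised to rat Agilent arrays, and Feature Extraction 10.7 is named in the submitters' processing notes. Per the file headers, the deposited scanner output gives each spot's processed intensity (linear, background-subtracted), its median and background intensities, and other marks for outliers and detection. The value table the authors deposited is a linear ratio: against the scanner signal divided by its 75th percentile, r was at least 0.9999 after log2, and column medians ran from 0.099 to 0.108, with no centring by gene.

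From the deposited intensity, log2 values were taken and the array's 75th percentile subtracted. Of each array 0 to 9 spots marked as outliers were dropped; none was saturated. That percentile ran from 809 to 1324 signal units, and the number of arrays limits the precision. RefSeq accessions without version named 27460 of 61657 probes through the GRCr8 gene table, which also gave the promoters (42 of 46 members matched). Per gene the probe brightest over the 12 single-animal arrays was taken, and it was kept where 1 or more of the 4 groups had every array well above background (for the pools, 1 or both pools).

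Groups of days 14 and 28 were compared with limma 3.58.1 in R 4.3.3 (1 mean per group, 12 arrays, Benjamini-Hochberg over 11849 genes). Pools were described only, with 1.25-fold and 1.5-fold as limits. The method was tested on simulated data. The labels say that the later arrays come from separate animals. The members, lists and tests were chosen with earlier results of these data known. Members were described in full if past the threshold, if immunoproteasome, PA28 or catalytic subunits, or if among the 5 highest and 3 lowest ratios of a pool comparison. Other members were described or named as examples after their values were seen, list genes up to 4 per list by call and size, and Nfe2l1 was chosen after its value was seen. No set tests were made.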

Additional observations from a re-analysis of the deposited data

How the results depend on the processing

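With 1 pooled array per group on days 1 and 7, and 3 animals per group later, small shifts such as these rest on few arrays, and the slide of day 28 goes with the group. On day 1 the 26 members at least 1.25-fold higher ranged from 18 to 33 over the alternatives. The count of members at least 1.25-fold lower, 1, was 0 with normexp, 0 with signals well above background on every array and 3 against the VC pool of day 7, where the median was 0.27. On day 7 the 2 members lower became 1 with signals well above background on every array, and the median of 0.16 became 0.0718 with normexp. On day 14 no alternative called a member. The median there was 0.0191 with slide as a fixed block and -0.0275 to 0.0244 without single replicates, and the median of the 6 other members, 0.01, was -0.0061 to 0.0911 without single replicates, below 0 without VC replicate 3.

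On day 28 the 2 members called higher became 5 with arrays scaled to the median, 5 with normexp, 1 with no filter on dim probes, 4 with signals well above background on every array, 1 with only the groups compared, 9 with slide as a random block and 5 with a trended, robust prior. The count was 0 to 3 without single replicates: 1 without VC replicate 1 or 3 or ANP replicate 1, and 0 without VC replicate 2 or ANP replicate 2. The 0 called lower became 2 with normexp (Psme4 and Psmd2) and 1 with slide as a random block (Psme4). In the random block fit the estimated correlation within slides was -0.089. Slide and group coincide on day 28, so the larger counts of that fit do not take out the slide. The median of 0.15 was 0.07 with quantile normalization, 0.04 with normexp and between 0.06 and 0.19 without single replicates. Psme3 remained called under the other settings that changed scaling, filter, probes or spread, with limma adjusted p of 0.0047 to 0.0497, and Psmd5 lost its call with normexp (0.13), no filter (0.056) and only the groups compared (0.12). Psmb6 was called under 6 of these settings. Between VC groups 0 to 1 members were higher without single replicates (1, Psme3ip1, without VC replicate 2 of day 14), and the median of 0.02 was -0.0619 with quantile normalization, -0.0565 with normexp and -0.0186 to 0.0464 without single replicates. Over all genes, the 43 higher and 14 lower of day 14 became 12 and 8 with only the groups compared, 0 and 0 with slide as a fixed block and 88 and 45 with slide as a random block, and the 532 and 319 of day 28 became 216 and 215 with only the groups compared and 1098 and 761 with slide as a random block. Leaving out single arrays gave 0 to 46 higher and 1 to 26 lower on day 14, and 146 to 488 higher and 62 to 271 lower on day 28. Slide as a fixed block was also run for VC, day 28 minus day 14, where 828 and 493 genes became 0 and 0, but day 28 and the difference between days could not be estimated. The causes were not tested.

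Groups share replicate numbers. The correlations of same-numbered arrays were 0.13, 0.07 and 0.14 on day 14 and -0.07, -0.05 and 0.11 on day 28. Arrays of different numbers had -0.18 to 0.05 on day 14 and -0.12 to 0.16 on day 28. On day 14 the same-numbered values were thus the higher ones, and these few correlations cannot settle whether animals were paired. With a replicate block 1 member was higher on day 28, Psme3, and the limma adjusted p of Psmd5 was 0.068.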
